A study of Mus musculus with 8 samples.

Results

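The proteasome genes described here are the 48 of 12551 counted genes whose symbol starts with Psma, Psmb, Psmc, Psmd, Psme, Psmf or Psmg followed by a digit. They comprise 14 constitutive subunits of the core particle, 17 subunits of the regulatory particle, 3 immunoproteasome subunits, 7 assembly chaperones, 5 activators and 1 inhibitor. The remaining match, Psmc3ip, encodes a factor of meiotic recombination that binds Psmc3 and is no proteasome subunit. Psma8 and Psmb11, 2 tissue-restricted subunits with symbols of this kind (of the testis and of the thymus), were not among the counted genes and were not analysed here. RNA was sequenced from whole tibialis anterior (TA) muscle, a fast-twitch muscle of the lower hind limb, of 4 wild-type (WT, Klotho wt/wt) and 4 Klotho-deficient (KL-/-, Klotho null/null) male mice aged 7 weeks. The mice were littermates bred from Klotho+/- parents on a mixed background, no animal received a treatment, and the deficiency was systemic, so that the muscle of a KL-/- animal had developed in a mouse without Klotho. The comparison asked which transcripts of the protein degradation machinery differed between muscles of mice with and without Klotho. Kl itself was not among the counted genes, and the labels were therefore not checked against it.

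The proteasome degrades proteins tagged with ubiquitin. Its core particle is a barrel of alpha and beta rings with proteolytic sites inside the beta rings, and its regulatory particle consists of a base, whose ATPases unfold the substrate, and a lid, which removes ubiquitin. Interferon induces 3 alternative catalytic subunits that replace their constitutive counterparts to form the immunoproteasome, which trims peptides for presentation on MHC class I. In muscle the ubiquitin-proteasome pathway carries out much of the breakdown of myofibrillar protein.

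Libraries held between 20860262 and 29273758 counts, and the 48 genes together took 0.430% to 0.476% of the counts of a library, with overlap between the genotypes. Levels are given as CPM, counts relative to a library total corrected by TMM factors, and calls use edgeR's quasi-likelihood test with a Benjamini-Hochberg adjusted p (FDR) under 0.05 over all 12551 genes. No pair of libraries of the same genotype agreed within sampling noise. Library KL-/- 2 lay farthest from the others of its genotype, with a mean chi-square per gene of 60.6 to 84.8 against them compared with at most 27.9 among the other 3 KL-/- libraries. Library KL-/- 3 carried another batch date than the 7 other libraries. The scaling matters for small differences. Over all genes, the median log2 fold change stood at -0.016 with TMM factors and at -0.13 with plain library totals, so that 52.4% of the called genes were higher in KL-/- with TMM factors and 18.8% with library totals. Nothing in the labels says how the samples were taken beyond 1 muscle sample per record, so p-values measure the spread between these samples. The muscle fibre markers Acta1, Ckm, Myh4, Myh1, Tnnt3, Mylpf, Actn3 and Pvalb were abundant in every library, with a lowest count of 147073.

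Of the 48 genes, 9 passed the test (18.8%, against 14.0% of all genes). The 7 higher in KL-/- were Psma4, Psma7, Psmb3, Psmc1, Psmc5, Psmd2 and Psmd4, all subunits of the core or regulatory particle, and 7.35% of all genes were called in that direction. The 2 lower in KL-/- were Psmb9, a catalytic subunit of the immunoproteasome, and Psme1, a subunit of an interferon-inducible activator, and 6.67% of all genes were called lower. The 7 rises were small, from 14.8% for Psmc1 to 26.3% for Psmd4, whereas Psmb9 was 44.2% lower and Psme1 18.1% lower. The values of the 4 WT and 4 KL-/- samples did not overlap for 17 of the 48 genes (19.7% of all genes). Among these, 13 were higher in KL-/- (10.2% of all genes) and 4 lower (9.47% of all genes). The median log2 fold change of the 48 genes was 0.084 with TMM factors and -0.034 with library totals, that is, 0.10 and 0.099 above the median of all genes.

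**Figure D1:**
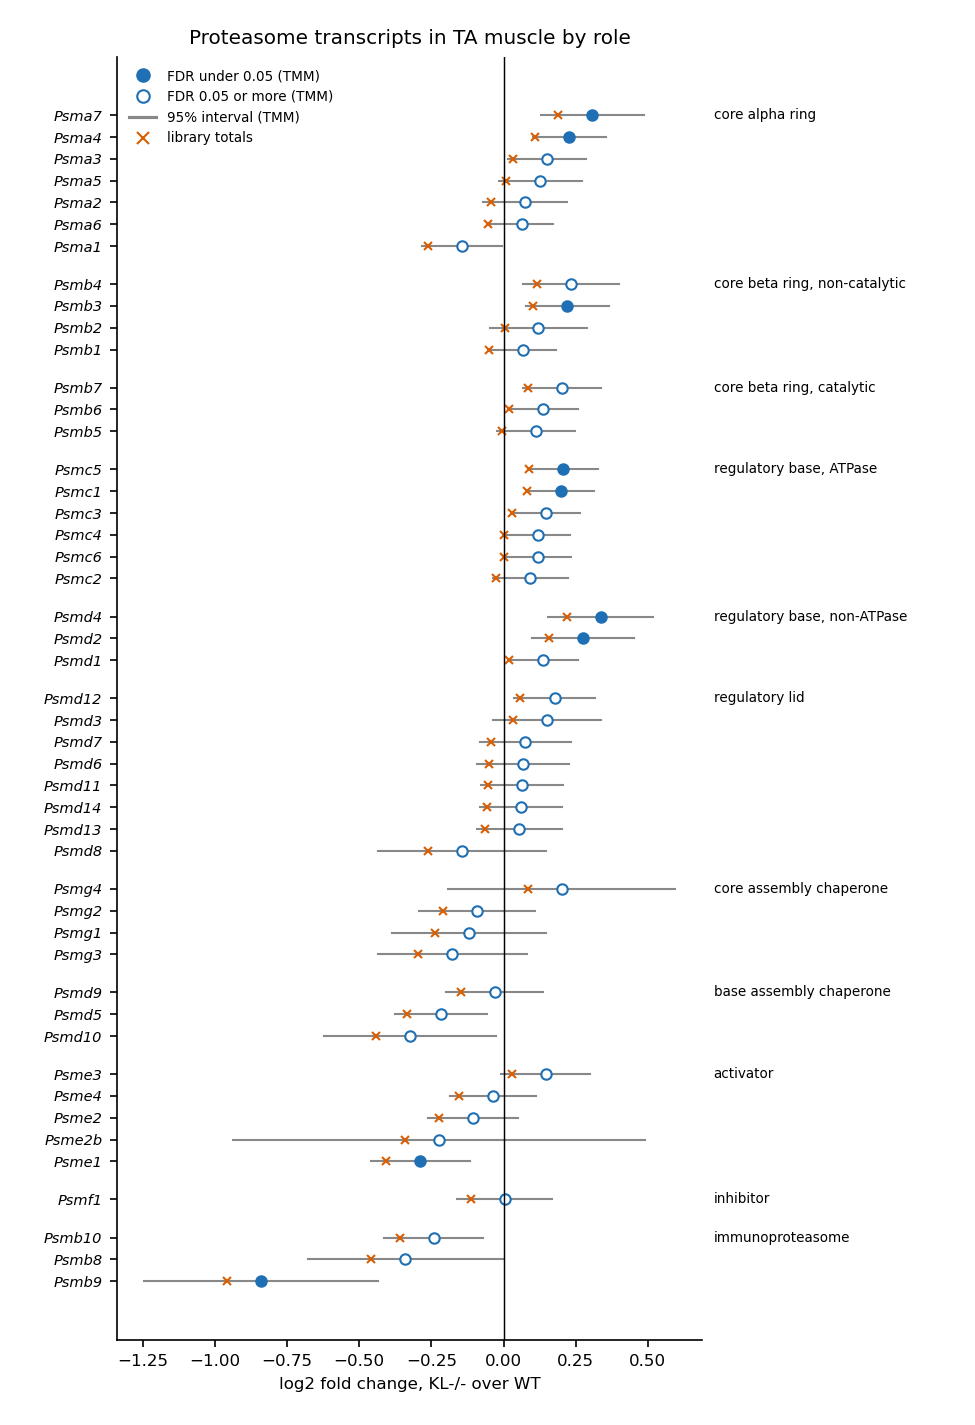
Log2 fold change of KL-/- over WT (horizontal axis) for 47 proteasome genes grouped by role, from 4 samples per genotype. Circles are TMM-scaled estimates with 95% intervals, filled where the FDR was under 0.05, and crosses are estimates from library totals. Of the 31 core and regulatory subunits 29 lie to the right of 0 with TMM factors and 19 with library totals, and the 3 immunoproteasome subunits lie to the left with both.

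The 7 calls in the higher direction did not hold with library totals or with every sample left out. With library totals 0 of them passed (2 of the 48 genes were higher at an unadjusted p under 0.05 in edgeR), and 7 genes were called lower, namely Psma1, Psmb9, Psmb10, Psmd5, Psmd10, Psme1 and Psme2. Without WT 1, WT 2, WT 3, KL-/- 3 or KL-/- 4 no proteasome gene was called higher (9 to 14 were higher at an unadjusted p under 0.05 in edgeR), without WT 4 or KL-/- 1 the number was 4, and without KL-/- 2 it was 11. Calls over the whole table also fell, from 1759 to 1193 without WT 1, and to 780, 775, 762 and 778 without WT 2, WT 3, KL-/- 3 and KL-/- 4. The log2 fold changes of the 7 genes stayed positive in these fits, from 0.18 (Psmc5) to 0.41 (Psmd4). The fit without KL-/- 3 is also the fit within the 1 batch date shared by both genotypes. DESeq2 called 11 genes higher and limma-voom 6, each with 2 lower. Here and below, counts at an unadjusted p under 0.05 are not set against the share of all genes. That share was large, as Psmb8 with an unadjusted p of 0.0492 had an FDR of 0.155 (edgeR). Whether these counts exceed that share was not tested.

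The sequences upstream of 3 starts are shown because Psmd4 and Psmb3 were among the subunits called higher with TMM factors and Psmb9 had the largest difference of the 48 genes. They are RefSeq promoters of GRCm38.p6, read 5' to 3' on the strand of the gene, with capitals at matches to 3 motifs searched on both strands: TGANNNNGC, the core of the antioxidant response element bound by CNC-bZIP factors such as Nfe2l1, CCAAT, bound by NF-Y, and GAAANNGAA, the paired sites of an interferon-regulated element. Psmd4 is shown from 250 bases to 1 base before its start (chr3:95042615-95042864, minus strand), Psmb3 from 250 to 36 bases before its start (chr11:97703184-97703398, plus strand) and Psmb9 from 71 to 42 bases before its start (chr17:34187372-34187401, minus strand).
Psmd4: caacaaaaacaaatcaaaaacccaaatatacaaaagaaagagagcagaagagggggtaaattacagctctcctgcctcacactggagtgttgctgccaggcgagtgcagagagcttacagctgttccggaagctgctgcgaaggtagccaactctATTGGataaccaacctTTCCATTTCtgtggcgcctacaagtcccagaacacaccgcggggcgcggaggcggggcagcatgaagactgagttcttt
Psmb3: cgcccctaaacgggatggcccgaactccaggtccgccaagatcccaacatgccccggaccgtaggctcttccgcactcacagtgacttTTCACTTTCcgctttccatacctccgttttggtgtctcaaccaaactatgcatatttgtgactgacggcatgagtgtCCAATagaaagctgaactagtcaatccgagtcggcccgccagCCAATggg
Psmb9: cccttgcgcgaTGATGGGGCggggcctcag
The Psmd4 window holds 1 CCAAT match, written ATTGG on this strand, and 1 match to the interferon motif, as TTCCATTTC. The Psmb3 window holds 2 CCAAT matches and 1 match to the interferon motif, as TTCACTTTC. The Psmb9 site holds a match to the antioxidant motif. Nearer to the start than the stretches shown, Psmb3 also held 1 match to the antioxidant motif and Psmb9 held 1 CCAAT match. Among the 7 subunits called higher, only the 2 shown, Psmd4 and Psmb3, held the interferon motif in the 250 bases. Psmc5 and Psmd2 held no match to any of the 3 motifs. In the table, 41 of the 48 genes had 44 promoters in all, and in the 250 bases before the start the antioxidant motif stood in 38.6% of these against 35.2% of all 32851 promoters. CCAAT stood in 31.8% against 33.8%, and the interferon motif in 6.82% against 7.13%. None of the 3 immunoproteasome promoters held the interferon motif in this window, which says only that these letters are not there. Psmb9 and the peptide transporter gene Tap1 start 226 bases apart on opposite strands of chromosome 17.

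With TMM factors, core particle transcripts were slightly higher in KL-/- muscle. Of the 14 constitutive core subunits, 3 passed the test, all higher (Psma4, Psma7 and Psmb3), and 13 had a positive log2 fold change. At an unadjusted p under 0.05 in edgeR, 8 passed, 7 of them higher and 1 (Psma1) lower. The median log2 fold change of the 14 came to 0.13 with TMM factors and to 0.015 with library totals, under which 9 of the 14 were positive. Of all 12551 genes, 7.35% were called higher, 5978 were positive with TMM factors and 3721 with library totals. The summed level of the 14 was 1373, 1366, 1265 and 1398 CPM in WT and 1459.6, 1454, 1501 and 1564 CPM in KL-/-, so that every KL-/- library lay above every WT library with TMM factors. These values rest on TMM factors of 0.950 to 0.980 in KL-/- and above 1 in WT.

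In the alpha ring, which gates entry to the core, Psma7 (chr2:180036367-180042464) had 77.4, 75.8, 69.8 and 85.2 CPM in the WT samples and 90.2, 88.0, 98.7 and 105 CPM in the KL-/- samples. All KL-/- samples lay above all WT samples, the closest being WT 4 and KL-/- 2. Its log2 fold change was 0.31 ± 0.079 (SE, n = 4 per genotype, FDR = 0.0330, edgeR). Psma4 (chr9:54950859-54958030) had 88.7, 85.7, 85.8 and 91.9 CPM in WT and 98.7, 98.9, 105 and 109 CPM in KL-/-. The groups were again separate, with a log2 fold change of 0.23 ± 0.056 (SE, n = 4 per genotype, FDR = 0.0295, edgeR). Psma1 was the only alpha subunit with a negative estimate. It had 77.6, 72.6, 70.3 and 79.2 CPM in WT and 65.1, 72.3, 68.2 and 65.9 CPM in KL-/-, with KL-/- 2 inside the WT range, and a log2 fold change of -0.14 that did not pass (FDR = 0.144, edgeR). With library totals Psma1 was -0.26 and passed (FDR = 0.0178, edgeR). Psma3, Psma5, Psma2 and Psma6, the other alpha subunits, had log2 fold changes of 0.15, 0.13, 0.074 and 0.063 with FDRs of 0.119 to 0.463 (edgeR), and the last 2 turned negative with library totals.

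Among the non-catalytic beta subunits Psmb3 (chr11:97703434-97713500) had 72.4, 69.5, 67.1 and 78.1 CPM in WT and 81.7, 79.7, 84.8 and 88.4 CPM in KL-/-. The samples did not overlap, although WT 4 and KL-/- 2 differed by little. The log2 fold change was 0.22 ± 0.064 (SE, n = 4 per genotype, FDR = 0.0483, edgeR). Psmb4 had the highest estimate of this class, 0.23 ± 0.074 (SE, FDR = 0.0634, edgeR), from 105, 105, 94.8 and 113 CPM in WT and 127, 110.1, 123 and 131 CPM in KL-/-. Its groups overlapped because KL-/- 2 lay below WT 4. Psmb1, the lowest, had 97.1, 95.6, 92.5 and 100.5 CPM in WT and 102, 98.8, 99.3 and 104 CPM in KL-/-, a difference within the spread of the samples that turned to -0.051 on the log2 scale with library totals, and Psmb2 had a log2 fold change of 0.12 (FDR = 0.291, edgeR).

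None of the 3 constitutive catalytic subunits passed the test in edgeR, although 2 had an unadjusted p under 0.05, and DESeq2 and edgeR with RLE factors called Psmb7. Psmb7, of the trypsin-like site, had 215, 217, 191 and 211 CPM in WT and 236, 230.5, 242 and 251 CPM in KL-/-. All KL-/- samples were above all WT samples, and the log2 fold change was 0.20 ± 0.060 (SE, FDR = 0.0529, edgeR). Of its exon bases 40.8% are shared with Nek6 on the other strand, which was also counted. Psmb6, of the caspase-like site, had 121, 126, 113 and 123 CPM in WT and 129, 131, 133 and 138 CPM in KL-/-, also without overlap (log2 fold change 0.14, FDR = 0.114, edgeR). Psmb5, of the chymotrypsin-like site, had 83.2, 87.0, 79.1 and 80.4 CPM in WT and 86.4, 84.0, 90.8 and 95.5 CPM in KL-/-. Its groups overlapped, and its log2 fold change of 0.11 (FDR = 0.222, edgeR) was -0.0042 with library totals.

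Regulatory particle transcripts had positive estimates of similar size with TMM factors. Of 17 subunits 4 passed, all higher in KL-/- (Psmc1, Psmc5, Psmd2 and Psmd4), and 16 had a positive log2 fold change. The median was 0.12, or 0.0024 with library totals, where 10 of the 17 were positive. The share of all genes called higher was 7.35%. The base held all 4 calls among its 9 subunits, and the lid held 0 among 8. That the base and the lid differ from each other was not tested.

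The ubiquitin receptor Psmd4 (chr3:95032691-95042614), which captures ubiquitin chains at the base, had the largest positive log2 fold change of the 48 genes. It had 107, 113, 101 and 118 CPM in WT and 135, 121, 149.7 and 149 CPM in KL-/-. The groups did not overlap, and KL-/- 2 lay nearest to the WT samples. The log2 fold change was 0.34 ± 0.081 (SE, 95% interval 0.15 to 0.52, FDR = 0.0270, edgeR). Library totals gave 0.22 (FDR = 0.0831, edgeR). Psmd2 (chr16:20651652-20663414), a scaffold that also docks ubiquitin-like domains, had 299.8, 285, 279 and 315 CPM in WT and 376, 308, 383 and 363 CPM in KL-/-. It passed (log2 fold change 0.28 ± 0.079, FDR = 0.0466, edgeR) although KL-/- 2 lay below WT 4. Without KL-/- 2 the FDR of Psmd2 was 0.00534, and in the 7 other fits with 1 sample left out it did not pass. Psmd1, the other scaffold, had 221, 211, 205 and 223 CPM in WT and 235, 229.9, 245 and 237 CPM in KL-/- without overlap (log2 fold change 0.14, FDR = 0.107, edgeR).

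All 6 ATPases of the base had positive estimates (5 with library totals), and 5 were higher with no overlap between the genotypes. Of all 12551 genes, 10.2% were higher without overlap, 5978 were positive with TMM factors and 3721 with library totals. Psmc5 (chr11:106256185-106263112) had 123, 124, 119.6 and 120.4 CPM in WT and 136, 132, 149 and 143 CPM in KL-/-. The WT samples lay within a few CPM of each other and below all KL-/- samples (log2 fold change 0.21 ± 0.054, FDR = 0.0363, edgeR). Psmc1 (chr12:100112331-100123364) had 123, 122, 120.4 and 125 CPM in WT and 134, 137, 145 and 147 CPM in KL-/-, again separate (log2 fold change 0.20 ± 0.052, FDR = 0.0343, edgeR). Psmc2, the ATPase with the lowest estimate, had 119, 114, 107 and 119 CPM in WT and 119, 118, 129 and 123 CPM in KL-/- with overlap (log2 fold change 0.092, and -0.026 with library totals). Psmc3, Psmc4 and Psmc6 had log2 fold changes of 0.15, 0.12 and 0.12 with FDRs of 0.0881, 0.125 and 0.141 (edgeR).

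In the lid 0 of 8 subunits passed in edgeR, DESeq2 or limma-voom with all samples, 1 (Psmd12) had an unadjusted p under 0.05, and all 8 had overlapping groups. Without KL-/- 2, Psmd3 was called higher (FDR = 0.0425, edgeR). Psmd12 had 118, 117, 119.7 and 132 CPM in WT and 129.9, 133, 144 and 143 CPM in KL-/- (log2 fold change 0.18, FDR = 0.0847, edgeR). Psmd8 had the lowest estimate, -0.14 with a 95% interval of -0.43 to 0.15, from 189.9, 180.1, 165 and 214 CPM in WT and 178, 137, 209 and 154 CPM in KL-/-. Its SE was the largest of both particles, and KL-/- 3 lay among the highest WT values. The other lid subunits, which include the deubiquitinase Psmd14 and its partner Psmd7, had log2 fold changes of 0.054 to 0.15 and FDRs of 0.244 to 0.602 (edgeR). With library totals the estimates of Psmd6, Psmd7, Psmd11, Psmd13 and Psmd14 turned negative.

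**Figure D2:**
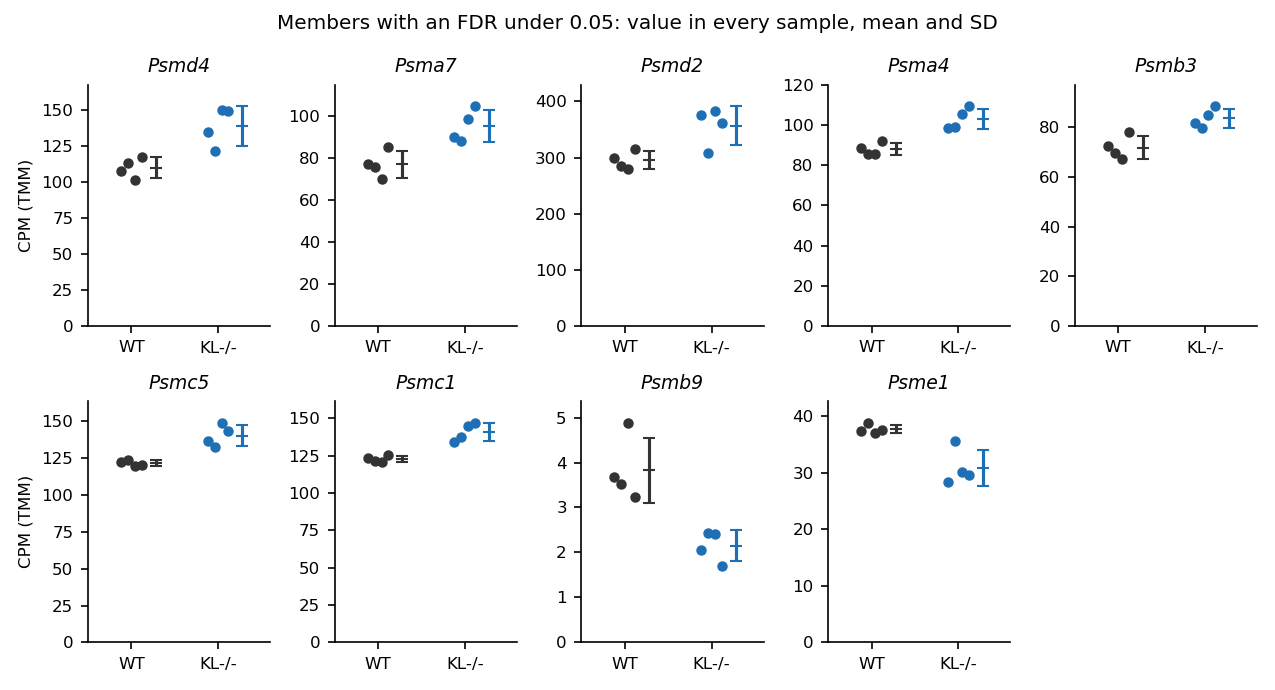
CPM (vertical axis, from 0) in each of the 4 WT and 4 KL-/- samples for the 9 proteasome genes with an FDR under 0.05, with the mean and SD at the right of each group. Points of a group stand in the order of replicate numbers. The genotypes are separate in 8 of the 9 panels and overlap for Psmd2, where KL-/- 2 lies at 308 CPM.

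The precision was even across both particles. For 30 of the 31 core and regulatory subunits the SE of the log2 fold change was at most 0.1, with a median of 0.062, and estimated folds ran from 0.906 to 1.26. Among the 7 subunits called higher, the lowest KL-/- value was that of KL-/- 2 in 5 and of KL-/- 1 in 2, and the highest was that of KL-/- 4 in 4 and of KL-/- 3 in 3. With 1 sample left out in turn, Psma4, Psma7 and Psmd4 passed in 3 of the 8 fits, Psmb3 and Psmc1 in 2, and Psmc5 and Psmd2 in 1, with FDRs of 0.00534 to 0.126 over all of these (edgeR). The summed CPM of the 8 muscle fibre markers was 125842 to 147793 in WT and 147188 to 191446 in KL-/-, and 7 of the 8 had a positive log2 fold change (6 with library totals), with 1 (Actn3) called higher. The part of fibre content in the core and regulatory values was not tested. In bulk tissue fewer cells of a type and less RNA per cell cannot be told apart.

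The immunoproteasome subunits had estimates of the opposite sign. All 3 had negative log2 fold changes under both scalings, 1 passed the test (Psmb9), and 2 had no overlap between genotypes (Psmb9 and Psmb10). The median was -0.34, or -0.46 with library totals. Over all genes 6.67% were called lower, and 9.47% were lower without overlap. Psmb9 (chr17:34182099-34187330), the inducible counterpart of Psmb6, had 3.67, 3.52, 4.88 and 3.23 CPM in WT and 2.06, 2.43, 2.40 and 1.70 CPM in KL-/-, from 76 to 128 counts per WT library and 45 to 59 per KL-/- library. The KL-/- values all lay under the WT values, and WT 3 was the highest of all. The log2 fold change was -0.84 ± 0.18 (SE, 95% interval -1.25 to -0.44, FDR = 0.0185, edgeR), the largest in size of the 48 genes. It passed in all 10 alternative settings (FDR 0.00189 to 0.0391), of which the fit with no filter equals the main fit, and in 7 of the 8 fits with 1 sample left out. Without KL-/- 4 it was -0.70 with an FDR of 0.0540 (edgeR).

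Psmb10, the counterpart of Psmb7, had 11.2, 10.9, 11.6 and 10.3 CPM in WT and 9.17, 9.30, 9.49 and 9.27 CPM in KL-/-. The KL-/- samples lay close together and below all WT samples. Its log2 fold change of -0.24 ± 0.076 (SE, FDR = 0.0635, edgeR) did not pass with TMM factors, and with library totals it was -0.36 and passed (FDR = 0.0146, edgeR). Psmb8, the counterpart of Psmb5, had 5.19, 6.11, 6.67 and 5.49 CPM in WT and 4.18, 5.34, 5.39 and 3.69 CPM in KL-/-. KL-/- 2 and KL-/- 3 lay inside the WT range, and the log2 fold change was -0.34 ± 0.15 (SE, FDR = 0.155, edgeR). An antisense transcript, Gm20496, shares 15.2% of the exon bases of Psmb8, and reads of both cannot be told apart where strand was not used in counting.

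**Figure D3:**
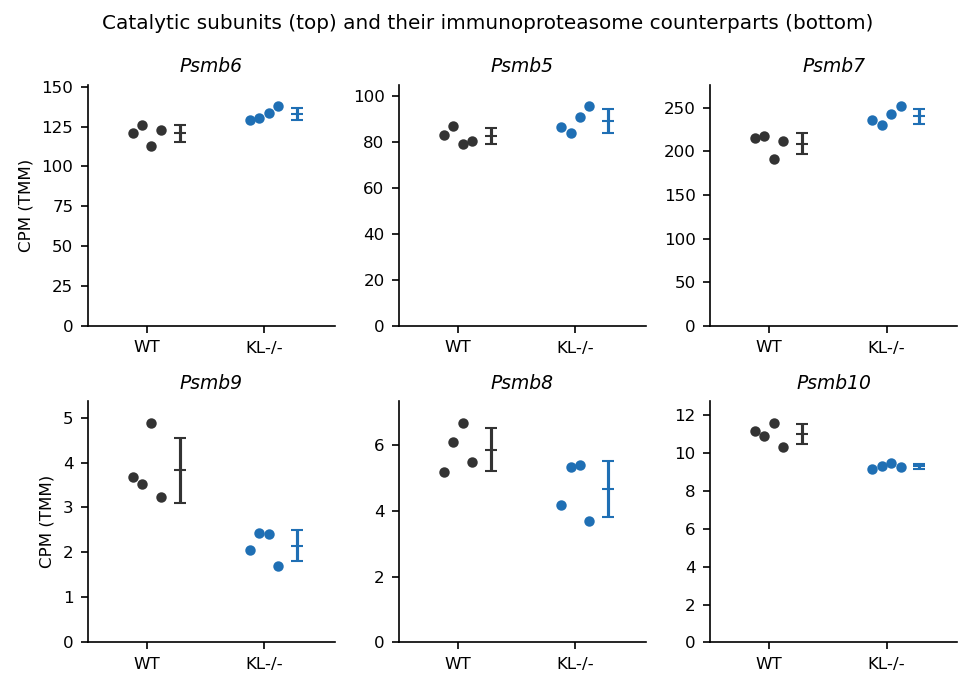
CPM (vertical axis, from 0, scaled separately in each panel) of the 3 constitutive catalytic subunits (top row) and of the immunoproteasome subunit that replaces each (bottom row), in 4 WT and 4 KL-/- samples with mean and SD. With TMM factors KL-/- means are higher in the top row (Psmb5 turns to -0.0042 on the log2 scale with library totals) and lower in the bottom row, and the samples are separate for Psmb6, Psmb7, Psmb9 and Psmb10.

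The ratio of each inducible subunit to its constitutive counterpart within a library does not depend on the scaling between libraries. Per kilobase of exon, Psmb9 stood at 3.91, 3.58, 5.55 and 3.38% of Psmb6 in the WT samples and at 2.04, 2.39, 2.32 and 1.58% in the KL-/- samples. The genotypes were separate, at 4.10% ± 0.986 and 2.08% ± 0.366 (SD, n = 4 each). Psmb10 stood at 4.04% ± 0.407 of Psmb7 in WT and 2.96% ± 0.110 in KL-/- (SD, n = 4 each), also separate. Psmb8 stood at 5.08% ± 0.664 of Psmb5 in WT and 3.74% ± 0.800 in KL-/- (SD, n = 4 each), and these samples overlapped. Within the immunoproteasome, Psmb9 relative to Psmb10 stood lower in KL-/-, going from 54.5% ± 7.95 to 36.3% ± 5.60 (SD, n = 4 each) without overlap. These ratios were not tested, and the unequal exon lengths enter both genotypes alike.

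**Figure D4:**
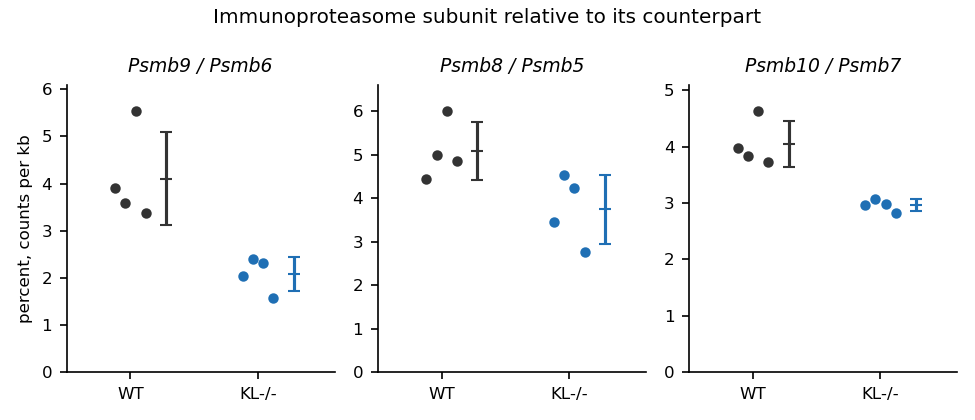
Level of each immunoproteasome subunit as a percentage of its constitutive counterpart, per kilobase of exon (vertical axis, from 0), in 4 WT and 4 KL-/- samples with mean and SD. The WT and KL-/- samples are separate for Psmb9 over Psmb6 and for Psmb10 over Psmb7, and overlap for Psmb8 over Psmb5.

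Genes of interferon signalling and of peptide loading on MHC class I, the setting in which the immunoproteasome works, had estimates of the same sign. All 13 on the list had negative log2 fold changes under both scalings, 5 passed (among them Tapbp, B2m, Erap1 and H2-K1), and 8 had no overlap (median log2 fold change -0.37, and -0.49 with library totals). Over all 12551 genes, 6573 were negative with TMM factors, and only 3721 were positive with library totals. The shares called lower and lower without overlap were 6.67% and 9.47%. B2m, the light chain of MHC class I, had 92.4, 99.5, 149 and 113 CPM in WT and 70.0, 79.7, 71.0 and 58.8 CPM in KL-/- (log2 fold change -0.70 ± 0.15, FDR = 0.0171, edgeR). B2m was highest in WT 3, the library in which Psmb9 and Psmb8 were also highest. WT 3 also had the highest summed leukocyte, fibroblast and endothelial markers described below (178, 3768 and 728 CPM). Tapbp, Erap1 and H2-K1, which load, trim and present peptides, had log2 fold changes of -0.37, -0.30 and -0.60 with FDRs of 0.0107, 0.0148 and 0.0170 (edgeR). Without KL-/- 4 the FDRs of B2m and H2-K1 were 0.0519 and 0.0536 (edgeR). Tap1 had 4.98, 5.64, 7.78 and 4.81 CPM in WT and 4.46, 4.15, 4.39 and 3.62 CPM in KL-/- and did not pass (log2 fold change -0.48, FDR = 0.0854, edgeR).

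Markers of other cells also differed between the genotypes. For comparison, 6573 of all 12551 genes had negative estimates, 6.67% were called lower and 7.35% higher. All 13 leukocyte markers had negative log2 fold changes, 4 were called lower, and their summed level was 92.1 to 178 CPM in WT and 39.5 to 79.0 CPM in KL-/-, without overlap. All 8 fibroblast markers were negative, with 3 called lower and sums of 935 to 3768 CPM in WT and 516 to 1689.6 CPM in KL-/-, with overlap. All 8 endothelial markers were negative, with 1 called lower and sums of 501 to 728 CPM in WT and 465 to 519 CPM in KL-/-, with overlap. Of the 6 Schwann cell markers 5 were positive and 3 called higher, with sums of 52.7 to 93.8 CPM in WT and 97.9 to 119 CPM in KL-/-. No marker of these lists was at 0 in any library. The part of any of these cells in the immunoproteasome values was not tested.

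Among the activators, which open the core in place of the regulatory particle, Psme1 was the only one called. Psme1 (chr14:55578494-55581527), a subunit of the interferon-inducible activator, had 37.4, 38.9, 37.1 and 37.7 CPM in WT and 28.4, 35.6, 30.2 and 29.6 CPM in KL-/-. All KL-/- samples lay below the tight WT values, with KL-/- 2 nearest to them. The log2 fold change was -0.29 ± 0.077 (SE, FDR = 0.0369, edgeR). With 1 sample left out it passed only without KL-/- 2 (FDR = 0.00520, edgeR), and the log2 fold change ran from -0.35 to -0.24 over the 8 fits. Its partner Psme2 had 17.9, 19.7, 17.9 and 16.9 CPM in WT and 17.0, 16.7, 17.1 and 16.5 CPM in KL-/-, with overlapping groups (log2 fold change -0.11, FDR = 0.319, edgeR), and passed with library totals at -0.22 (FDR = 0.0477). Psme2b, a copy of Psme2 with 99.4% identity over 794 bases, had 11 to 25 counts per library, and the split of reads between the copies is uncertain.

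Psme3, which forms a nuclear activator that interferon does not induce, had 70.8, 63.6, 63.4 and 69.1 CPM in WT and 75.8, 67.0, 79.2 and 73.2 CPM in KL-/- (log2 fold change 0.15, FDR = 0.176, edgeR). WT 1 and WT 4 lay within the KL-/- range. Psme1 stood at 152% ± 10.043 of Psme3 per kilobase in WT and 113% ± 19.7 in KL-/- (SD, n = 4 each), with overlap through KL-/- 2. Psme4, an activator of a single large chain, had 532, 484, 440.4 and 486 CPM in WT and 481, 473, 480.2 and 459 CPM in KL-/-, and its 95% interval of -0.19 to 0.11 spans 0. The inhibitor Psmf1 had 21.2, 21.0, 19.9 and 20.5 CPM in WT and 19.9, 21.4, 22.6 and 18.998 CPM in KL-/-, with a log2 fold change of 0.0042 and a 95% interval of -0.16 to 0.17, and it was -0.11 with library totals.

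The 7 assembly chaperones, which build the particles and leave the finished proteasome, had 0 calls in edgeR, DESeq2 or limma-voom, and 2 (Psmd5 and Psmd10) were lower at an unadjusted p under 0.05. An excess over all genes at this threshold was not shown. Of the 7, 6 had negative estimates under both scalings. Of the chaperones of the base, Psmd10 had the lowest estimate, from 7.51, 9.11, 8.35 and 9.86 CPM in WT and 6.73, 7.30, 8.16 and 5.69 CPM in KL-/-. KL-/- 3 alone lay within the WT range, and the log2 fold change was -0.32 ± 0.13 (SE, FDR = 0.127, edgeR). Psmd5 had a log2 fold change of -0.22 ± 0.071 (SE, FDR = 0.0701, edgeR) with no overlap, and passed along with Psmd10 with library totals. Psmd9 had 19.9, 22.0, 19.5 and 19.4 CPM in WT and 19.5, 21.5, 18.5 and 19.7 CPM in KL-/-, a difference within the spread. Of the chaperones of the core, Psmg4 had the highest estimate (2.82, 2.78, 2.21 and 2.76 CPM in WT and 3.31, 2.10, 3.32 and 3.32 CPM in KL-/-) and Psmg3 the lowest (5.59, 6.75, 5.34 and 6.28 CPM in WT and 5.47, 5.73, 5.22 and 4.75 CPM in KL-/-). The log2 fold change was 0.20 ± 0.18 for Psmg4 and -0.18 ± 0.12 for Psmg3 (SE, n = 4 per genotype), and neither passed. Psmg1 and Psmg2 had log2 fold changes of -0.12 and -0.093. Psmc3ip, matched by symbol only, had 1.37 ± 0.193 CPM in WT and 1.64 ± 0.304 CPM in KL-/- (SD, n = 4 each).

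Among 10 counted proteasome subunits and bound factors with other symbols, 2 passed, both higher (7.35% of all genes), and 8 were positive (6 with library totals). Uchl5, a deubiquitinase of the regulatory particle, had 23.8, 22.2, 23.6 and 21.1 CPM in WT and 26.3, 27.8, 28.2 and 29.6 CPM in KL-/-, without overlap (log2 fold change 0.30 ± 0.069, FDR = 0.0226, edgeR). AI314180, the mouse symbol for the proteasome adaptor and scaffold Ecpas, had 392, 365, 357 and 363 CPM in WT and 418, 434, 448 and 457 CPM in KL-/-, also separate (log2 fold change 0.25 ± 0.058, FDR = 0.0234, edgeR). With library totals their log2 fold changes were 0.18 and 0.13 and neither passed. Leaving out WT 2, KL-/- 3 or KL-/- 4 also ended both calls, as did leaving out WT 3 or WT 4 for AI314180 (FDR up to 0.0698, edgeR). The ubiquitin receptor Adrm1, which anchors Uchl5, had a log2 fold change of 0.17 (FDR = 0.180), the small lid subunit Sem1 (counted as Shfm1) of 0.20 (FDR = 0.0749), the maturation factor Pomp of 0.10 (FDR = 0.351) and the deubiquitinase Usp14 of -0.020 (FDR = 0.847, all edgeR). With library totals Pomp was -0.020.

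Of 8 counted genes that control proteasome transcription, 1 passed, against 14.0% of all genes. Nfe2l1, the factor that induces proteasome genes when proteasome activity is low, had 767, 743, 712 and 921 CPM in WT and 845, 722, 920.0 and 895 CPM in KL-/-. The groups overlapped widely (log2 fold change 0.11, FDR = 0.514, edgeR, and -0.012 with library totals). Mafk, a small Maf protein that pairs with Nfe2l1, had 25.7, 25.3, 26.8 and 32.7 CPM in WT and 47.0, 29.2, 50.4 and 41.7 CPM in KL-/-. Its log2 fold change was 0.61 ± 0.16 (SE, FDR = 0.0351, edgeR), with KL-/- 2 inside the WT range, and with 1 sample left out it passed only without WT 4 or KL-/- 2 (FDR up to 0.0927 otherwise). With library totals Mafk was 0.49 and did not pass (FDR = 0.0616, edgeR).

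Of 6 ubiquitin genes and activating enzymes 3 passed, against 14.0% of all genes. Rps27a, which encodes ubiquitin fused to a ribosomal protein, had 100.4, 95.8, 93.8 and 97.5 CPM in WT and 131, 131, 132 and 137 CPM in KL-/-. The gap between the genotypes was wide against the spread within each (log2 fold change 0.46 ± 0.049, FDR = 0.00235, edgeR, and 0.34 with library totals, FDR = 0.00338). Ubb, a polyubiquitin gene, had 40.5, 36.1, 46.6 and 40.6 CPM in WT and 47.3, 52.8, 56.0 and 52.3 CPM in KL-/- (log2 fold change 0.35 ± 0.086, FDR = 0.0294, edgeR). Uba6, an activating enzyme for ubiquitin and a ubiquitin-like protein, went down from 10.5, 8.65, 9.80 and 11.2 CPM in WT to 6.49, 7.54, 6.63 and 5.54 CPM in KL-/- (log2 fold change -0.62 ± 0.12, FDR = 0.0127, edgeR). Rps27a and Uba6 passed in all 8 fits with 1 sample left out, and Ubb lost its call without WT 1, WT 2, WT 4, KL-/- 3 or KL-/- 4 (FDR up to 0.0837, edgeR) and with library totals (log2 fold change 0.23, FDR = 0.0875, edgeR). Of 17 genes that deliver substrates to the proteasome, such as the segregase Vcp, 0 passed in edgeR's quasi-likelihood test or limma-voom, 4 had an unadjusted p under 0.05, and DESeq2 and edgeR's likelihood ratio and exact tests each called 1 higher. With library totals Vcp was called lower (log2 fold change -0.28, FDR = 0.0165, edgeR), and without KL-/- 2 the list held 3 genes called higher and 1 lower.

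Per kilobase of exon, the levels of the constitutive core subunits in WT muscle spanned 5.11-fold, from 42.1 CPM per kilobase for Psma5 to 215 for Psmb7, with a median of 90.6. Those of the regulatory subunits ran from 36.6 for Psmd14 to 124 for Psmd8, with a median of 74.8. The immunoproteasome subunits stood far lower, at 4.74 for Psmb9, 4.79 for Psmb8 and 8.67 for Psmb10, and the first 2 did not differ beyond their spread (SD 0.903 and 0.541, n = 4). Assembly chaperones ran from 4.77 to 16.8 CPM per kilobase. Of the activators, Psme4 at 75.4 was at the level of the regulatory subunits, followed by Psme1 at 38.7, Psme3 at 25.5 and Psme2 at 18.5. In KL-/- muscle the core median was 97.7 and the regulatory median 79.8 CPM per kilobase, and Psmb9 stood at 2.66. Levels of 11 of the 48 genes may include reads of an annotated gene that shares exon bases, and those of 11, among them Psma4, Psmb3, Psmc1 and Psmd2, reads of a copy with at least 95% identity over at least 300 bases.

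**Figure D5:**
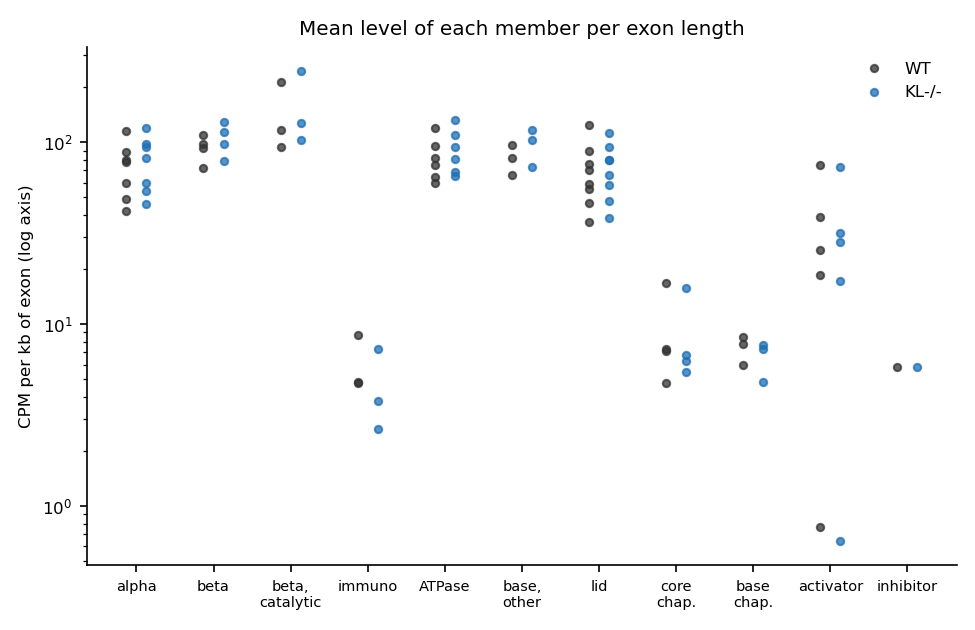
Mean CPM per kilobase of exon (vertical log axis) of each proteasome gene in WT and KL-/- muscle (n = 4 each), by role. Core and regulatory subunits lie between 36.6 and 248 in both genotypes, while immunoproteasome subunits and assembly chaperones lie between 2.66 and 16.8.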

How the data were processed

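RNA of 8 TA muscles (4 WT, 4 KL-/-, 1 record per sample) was sequenced on an Illumina NovaSeq from 100 ng of RNA. The labels give the molecule as total RNA, while the study's methods speak of mRNA. The authors checked reads with FastQC, aligned them to mm10 with STAR, dropped low-quality alignments and deposited whole-number counts per gene from featureCounts. The annotation version and strand setting are not given in the sources used here.

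Genotypes come from the sample records. The tests ran in edgeR 4.0.16 under R 4.3.3 (TMM factors, genotype only, quasi-likelihood test, Benjamini-Hochberg adjustment, FDR under 0.05). All 12551 genes passed filterByExpr, and the script was tested on simulated data. Standard errors are the log2 fold change over the root of F. In these libraries 3 counts equal 0.105 to 0.143 CPM, and 95% intervals reflect the spread between samples. Alternatives were edgeR's likelihood ratio, exact and earlier quasi-likelihood tests, DESeq2 1.42.0, limma-voom (limma 3.58.1), RLE factors, library totals, a minimum of 10 counts in every sample, no filter, the replicate number as a block and each sample left out in turn.

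Exon overlaps and copies come from GENCODE M21 (blastn 2.17.0), promoters from RefSeq GRCm38.p6. Values in every sample are given for called genes, the catalytic subunits and their counterparts, activators, the inhibitor and the highest and lowest gene of each other class, and of the pathway lists for called genes and 6 others named by rule. For brevity some are given by their log2 fold change. Some genes counted in the pathway lists are not reported here by name. The genes and lists were chosen with earlier results of these data known. Exon lengths for levels per kilobase are those in the deposited table.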

Additional observations from a re-analysis of the deposited data

Results flagged for a closer look

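For 6 values of the genes named above the gap to the other 3 samples of the genotype, relative to the range of the group, exceeded Dixon's 95% critical value. This was among 128 groups of 4 samples, and chance alone flags about 1 group in 20. Psma6 in KL-/- 4 had 123 CPM (123.449) while the other KL-/- samples had 118 to 119 CPM. Psmd3 in KL-/- 2 had 121 CPM (121.375) while the others had 146 to 149 CPM. Psmd6 in WT 3 had 110.1 CPM (others 93.1 to 95.4 CPM), and Psmd11 in WT 4 had 108 CPM (others 92.2 to 94.1 CPM). Psmg4 was flagged in both genotypes, at 2.21 CPM in WT 3 (others 2.76 to 2.82 CPM) and at 2.10 CPM in KL-/- 2 (others 3.31 to 3.32 CPM), values that rest on 58 and 44 counts. None of these 5 genes passed the test between the genotypes with all samples. Psmd3 passed, higher in KL-/-, without KL-/- 2 (FDR = 0.0425, edgeR).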

How the results depend on the processing

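Of the 1152 recomputed log2 fold changes of single genes, 1008 kept their direction and their side of the threshold, 106 lost the call, 16 gained 1 and 22 changed sign. The fit with no filter is among these and could not differ from the main fit, since all genes passed the filter.

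With library totals the median of the 48 proteasome genes turned to -0.034, the called genes of the whole table numbered 492 higher and 2127 lower, and the called proteasome genes 0 higher and 7 lower. The estimates that changed sign were Psma2 (-0.043), Psma6 (-0.055), Psmb1 (-0.051), Psmb5 (-0.0042), Psmc2 (-0.026), Psmd6 (-0.052), Psmd7 (-0.043), Psmd11 (-0.053), Psmd13 (-0.064), Psmd14 (-0.059), Psmf1 (-0.11), Nfe2l1 (-0.012) and Pomp (-0.020), none of which was called. Psmf1 was -0.00079 with limma-voom. Proteasome genes called higher numbered 4 with the likelihood ratio and exact tests and 11 with DESeq2.

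With the replicate number as a block, 671 genes passed (348 higher, 323 lower) and 1 proteasome gene, Psmb9 (0 higher, 1 lower, with 15 at an unadjusted p under 0.05, edgeR). For each gene the mean log2 CPM of the genotype was subtracted. The remaining deviations of same-numbered WT and KL-/- samples correlated at -0.15, 0.18, -0.37 and 0.017 across genes. Not every WT sample correlated best with its own number, so the numbers are not shown to pair the mice.

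With 1 sample left out, genes called numbered 762 to 2755 (404 to 1521 higher, 343 to 1234 lower), and proteasome genes 0 to 13 (0 to 11 higher, 0 to 2 lower). The highest numbers came without KL-/- 2, and 0 proteasome genes came without KL-/- 4 (13 at an unadjusted p under 0.05, edgeR). Estimates near 0 changed sign, namely Psmd9 (-0.062 to 0.013), including 0.00044 without KL-/- 3, Psme4 (-0.080 to 0.010), Psmf1 (-0.040 to 0.044), including -0.012, -8.2e-05 and -0.0027 without WT 3, WT 4 and KL-/- 2, and Usp14 (-0.041 to 0.020). The cause of these changes was not tested. At this depth, genes with under 100 counts, such as Psme2b and Psmg4, carry the widest intervals.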
